A study of Mus musculus with 20 samples.

Results

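The step from day 2 to day 4 of neural differentiation was followed in TKO cells of ES-E14TG2a, a mouse embryonic stem cell line. The 2 TKO D4 libraries were set against the 2 TKO D2 libraries, which are 4 of the 20 polyadenylated RNA libraries of the series, and the estimated counts of all transcripts of a gene were summed. The TKO D2 and TKO D4 groups differ in the day of harvest, and the WT D2 and WT D4 groups, with 2 libraries each, are the same days in cells of the other genotype. According to the labels, the stem cells were kept on gelatin in serum with LIF at D0 and were then plated on laminin in N2B27, a serum-free medium that lets stem cells take a neural fate without added inducers, so every D2 and D4 group had left serum and LIF. The labels do not define TKO and do not say how the TKO cells were made or whether they are 1 clone. The libraries are called biological replicates there, with nothing on separate cultures, so p-values measure the spread between these samples.

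As embryonic stem cells leave the naive state they pass through a formative state, marked by Otx2, Fgf5 and Pou3f1, before they choose a lineage. Cells that become neural then lower Pou5f1, replace E-cadherin by N-cadherin and switch on Sox1, the earliest transcription factor particular to the neural plate. Retinoic acid, Wnt, Fgf and Notch signals next set the position of neural progenitors along the body axis and the pace at which neurons form. DNA methylation, which the enzymes Dnmt1, Dnmt3a and Dnmt3b write, is gained across the genome early in this course and keeps a set of germline genes silent.

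Levels are given as counts per 1000000 (CPM), with library sizes adjusted by TMM, and values for a group are given for replicate 1 and then replicate 2. Fold changes are log2 values of D4 against D2, with their standard error (SE), and genes are said to have risen or fallen where the edgeR quasi-likelihood test passed (Benjamini-Hochberg adjusted p under 0.05 over 18555 genes tested). TKO D2 held 31298096 and 26015282 counts and TKO D4 35016995 and 30297321, and in these 4 libraries the 10 most abundant genes held between 4.32% and 4.98% of all counts. On the first principal component of all 20 libraries the TKO D2 libraries lay at -50.7 and -48.45 and the TKO D4 libraries at 15.48 and 18.44, and the replicates of TKO D2 and TKO D4 differed by more than sampling noise (chi-square per degree of freedom 4.96 and 4.48). Within bulk RNA, fewer cells of a type and less RNA per cell cannot be told apart. Genes with at least 10% of their 31-mers in transcripts of other genes are marked as shared, since their counts depend on how kallisto divided the reads.

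The labels do not name the genes that were targeted, and the DNA methyltransferases were read first as possible targets. Dnmt1, the enzyme that copies methylation after replication, stood at 80.9 and 78.6 CPM in TKO D2 and at 85.6 and 96.7 CPM in TKO D4, against 478 and 484 CPM in WT D2 and 417 and 449 CPM in WT D4. Dnmt3a, which sets new methylation, was at 65.8 and 62.8 CPM in TKO D2 and 7.87 and 8.89 CPM in TKO D4, and WT D2 held 607 and 611 CPM. Dnmt3b, its partner enzyme, was at 110.0 and 112 CPM in TKO D2 and 32.5 and 28 CPM in TKO D4, and WT D2 held 1448 and 1325 CPM (13.5% shared). All TKO levels of these 3 genes lay below all WT levels of the same day. Within TKO, Dnmt3a (log2 fold change -2.94, SE 0.084, edgeR adjusted p = 1.3e-14) and Dnmt3b (-1.87, SE 0.13) fell, and Dnmt1 did not pass (0.19, SE 0.087, adjusted p = 0.0659). Counts of an edited gene do not say whether its RNA still encodes a protein.

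Between D2 and D4 naive and core pluripotency genes and the epithelial cadherin Cdh1 fell in TKO cells (all 18 naive and 14 of 15 core genes), and neural plate genes rose (29 of 32). Of 31 neuron genes 14 rose and 8 fell, and of 27 endoderm genes, whose transcripts were present in TKO at D2, 18 fell. By edgeR 5859 of 18555 genes rose (31.6%) and 5628 fell (30.3%), so that 61.9% of all genes passed in either direction. Among those, 2514 rose (13.5%) and 2373 fell (12.8%) by at least 2-fold, 403 rose and 587 fell by at least 8-fold, and the median of all genes was 0.00. Because so many genes passed, the counts of list members that rose or fell are to be read against 31.6% higher and 30.3% lower. Both D4 libraries lay above both D2 libraries for 41.1% of all genes, and below them for 40.1%.

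**Figure D1:**
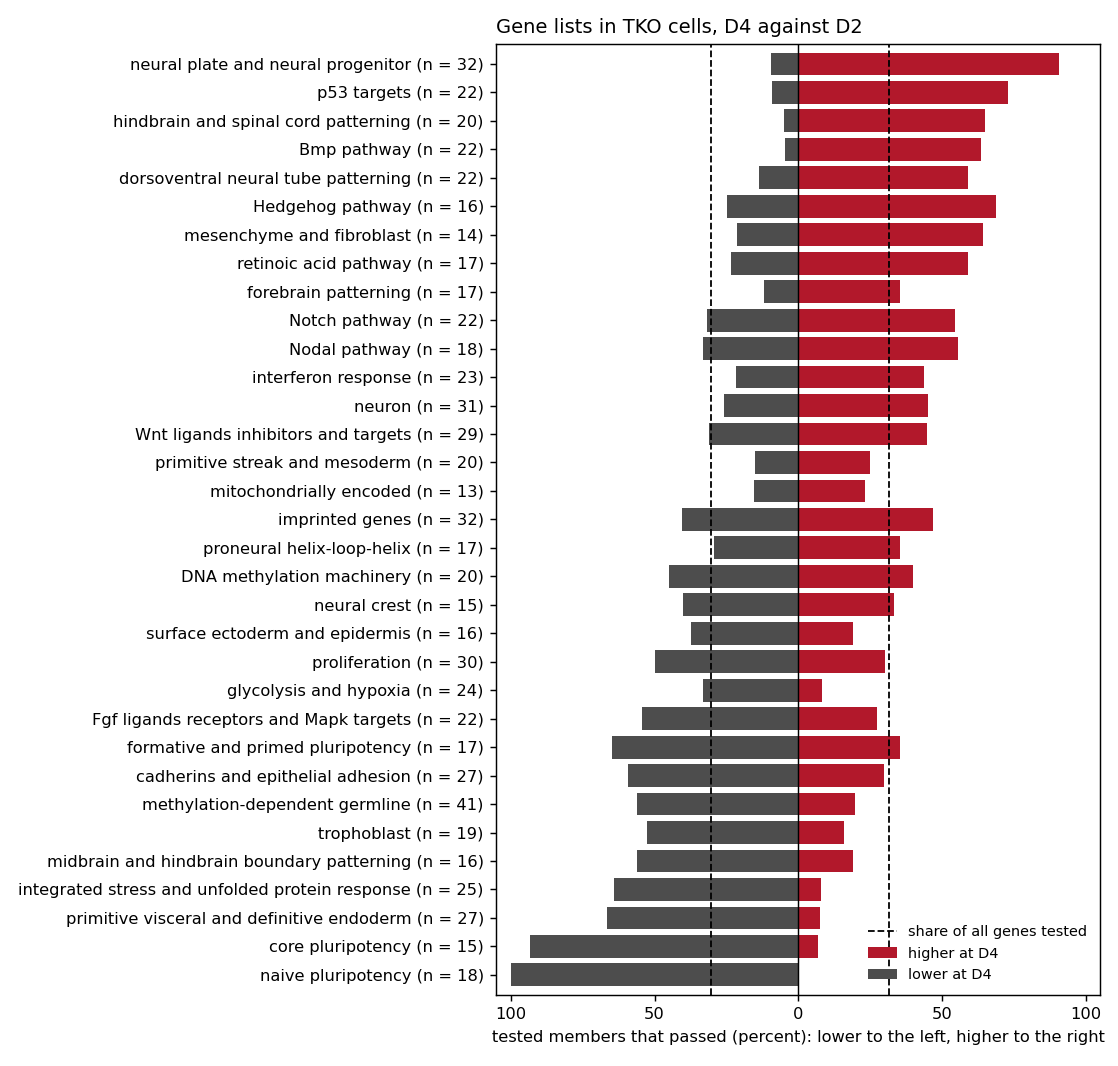
Share of the tested members of each of 33 gene lists that were higher (right) or lower (left) in TKO D4 than in TKO D2, in percent, with n the members tested and dashed lines at the shares of all 18555 genes (31.6% and 30.3%). The neural plate list extends farthest to the right at 90.6% and the naive list, with all 18 members lower, farthest to the left.

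Naive pluripotency genes fell as a whole list. All 18 members fell (median -3.89, against 0.00 over all genes). Tcl1, a cofactor of the kinase Akt in stem cells, went from 15.4 and 14.1 CPM at D2 to 0.257 and 0.264 CPM at D4 (log2 fold change -5.80, SE 0.23, adjusted p = 5.66e-13). Nr0b1, a nuclear receptor of the stem cell network, went from 48.9 and 42.4 to 1.06 and 0.925 CPM (-5.51, SE 0.23, adjusted p = 8.38e-13). In both genes the D4 libraries were far below the D2 libraries and close to each other. Tdh, the threonine dehydrogenase on which mouse stem cells depend, fell by 5.72 (17.1% shared) and Dppa3, which shields maternal methylation, by 6.23 on the log2 scale (29.6% shared). Nanog, a central factor of the same network, moved least, from 61.4 and 52.1 CPM to 45.3 and 34.2 CPM (-0.51, SE 0.18, adjusted p = 0.0189, 10.4% shared). That call ended by DESeq2 (adjusted p = 0.0851), without TKO D2 replicate 1 (0.155) and without TKO D4 replicate 2 (0.21).

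Core pluripotency genes followed, with 14 of 15 lower (median -2.66). The remaining member, Lin28a, an RNA-binding protein that holds back let-7, went from 817 and 812 CPM to 1000.0 and 978 CPM (log2 fold change 0.28 with SE 0.098, adjusted p = 0.0196), a call that ended when any of the 4 TKO libraries was left out. Pou5f1, the factor Oct4 (ENSMUSG00000024406.16, GRCm38 chr17:35506018-35510772, plus strand), went from 1168 and 1029 CPM to 107 and 81.1 CPM (-3.55, SE 0.23, adjusted p = 3.82e-10). So at D4 a residue of Pou5f1 transcript was still counted in both libraries. Dnmt3l, the inactive partner of the de novo methyltransferases, went from 531 and 487 CPM to 17.9 and 12.9 CPM (-5.04, SE 0.20, adjusted p = 4.45e-13). Utf1, a chromatin factor of stem cells, fell by 4.57 and L1td1, which binds RNA in pluripotent cells, by 4.03 on the log2 scale. Sox2, which serves both pluripotent and neural cells, fell far less, from 229 and 213 CPM to 131 and 137 CPM (-0.73, SE 0.059, adjusted p = 8.1e-09). Over members with under 10% shared 31-mers the median of the core list was -1.94.

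Of 17 formative and primed genes, 11 fell and 6 rose (median -1.87). Dnmt3a and Dnmt3b, read above as possible targets, are among the 11, and the median equals the Dnmt3b value. Otx2, which leads the exit from the naive state and later marks the forebrain and midbrain, went from 79.9 and 74.5 CPM to 3.72 and 2.84 CPM (log2 fold change -4.55 with SE 0.18, adjusted p = 4.85e-13). Pou3f1, a POU factor of the epiblast and early neural plate, went from 226 and 216 CPM to 26.3 and 23.3 CPM (-3.15, SE 0.12, adjusted p = 5.31e-13). Fgf5, the classical epiblast marker, was low already at D2, with 9.05 and 8.34 CPM, and reached 1.32 and 0.859 CPM (-2.98, SE 0.25, adjusted p = 1.09e-08). In these genes the D2 libraries were high, the D4 libraries low and the groups did not overlap. Foxd3, a forkhead factor of epiblast and neural crest, fell by 5.00, Lef1, a nuclear partner of beta-catenin, by 3.61 and Grhl2, which maintains epithelia, by 3.56 on the log2 scale.

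**Figure D2:**
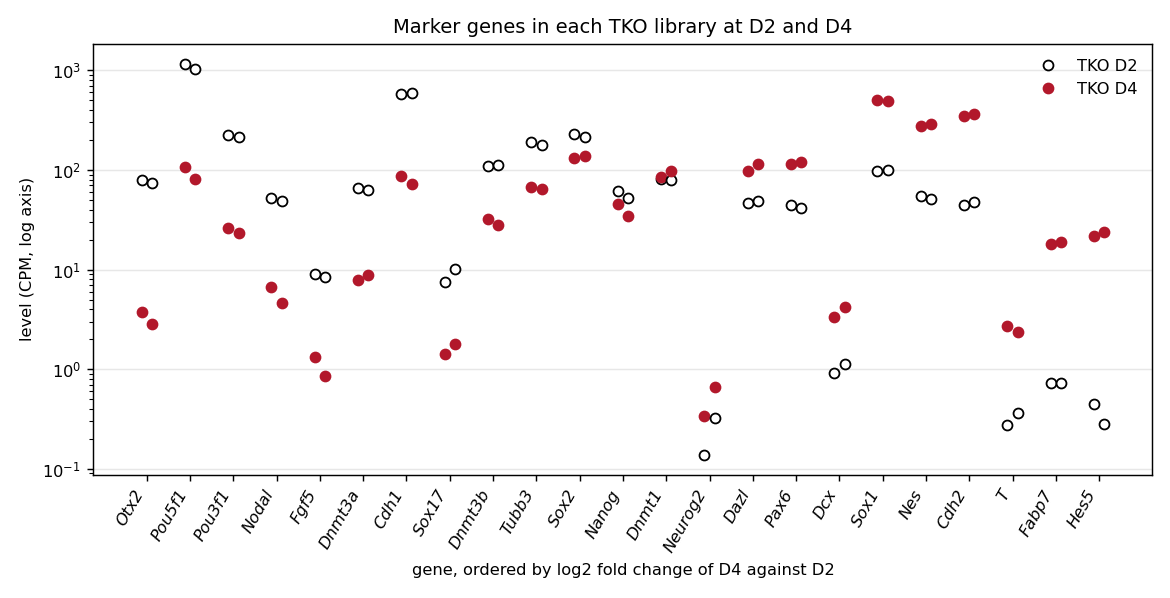
Level in CPM (log axis) of 23 marker genes in each TKO library, with open circles for the 2 D2 libraries and filled circles for the 2 D4 libraries, ordered by log2 fold change. Otx2 stands at the left with the most negative change (-4.55) and Hes5 at the right with the most positive (5.93).

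The cadherins exchanged within these 2 days. Cdh1, E-cadherin, the adhesion molecule of pluripotent epithelium (ENSMUSG00000000303.12, GRCm38 chr8:106603351-106670246, plus strand), went from 579 and 597 CPM to 87.6 and 71.7 CPM (log2 fold change -2.88 with SE 0.10, adjusted p = 1.85e-13). Cdh2, N-cadherin of the neural tube, went from 45 and 47.8 CPM to 347 and 363 CPM (2.94, SE 0.057, adjusted p = 1.77e-16). Of 27 cadherin and epithelial adhesion genes, 16 fell and 8 rose (median -0.68). P-cadherin, Cdh3, fell by 2.99 and Cldn5, a tight junction claudin, by 4.77 on the log2 scale, while Cdh11, a cadherin of mesenchyme and neural cells, rose from 0.274 and 0.361 CPM to 5.03 and 5.78 CPM (4.08, SE 0.26).

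Neural plate and progenitor genes rose almost throughout, with 29 of 32 members higher, 3 lower and a median of 2.49. Sox1 (ENSMUSG00000096014.1, GRCm38 chr8:12395295-12400126, plus strand) was already transcribed at D2, at 97.8 and 98.9 CPM, and reached 507 and 491 CPM (log2 fold change 2.34 with SE 0.095, adjusted p = 7.8e-13). Nes, the intermediate filament nestin of neural progenitors, went from 54.6 and 51.1 CPM to 279 and 289 CPM (2.43, SE 0.087, adjusted p = 1.67e-13). Pax6, a paired homeobox factor of eye and forebrain progenitors, went from 44.2 and 41.9 CPM to 116 and 121 CPM (1.46, SE 0.063, adjusted p = 1.62e-12). These 3 genes were present in both D2 libraries and higher in both D4 libraries.

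Other members started near 0. Nr2f2, the orphan nuclear receptor COUP-TFII, went from 0.377 and 0.682 CPM to 70.1 and 75.8 CPM (log2 fold change 7.13 with SE 0.17, adjusted p = 1.49e-15). Pou3f2, a POU factor that promotes neural differentiation, went from 0.994 and 1.04 CPM to 45.6 and 54.4 CPM (5.61, SE 0.21). Fabp7, the lipid-binding protein of radial glia, went from 0.72 and 0.722 CPM to 17.9 and 18.9 CPM (4.67, SE 0.32, adjusted p = 1.34e-09). Sox5, a SoxD factor of neural progenitors, rose by 5.39 on the log2 scale. The 3 lower members were Sox2, Slc1a3, a glutamate transporter of astroglia (-0.95), and Zic2, a zinc finger factor of the epiblast and neural plate (-0.67). Most members that make up a count of 5 or fewer are named with it here and below, after their values were seen, whether or not the rule for named genes chose them.

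Hes5, a transcriptional repressor that Notch induces in neural progenitors, had the largest rise among the preset markers. Its promoter is shown because it carries a pair of matches to the core motif of RBPJ, the DNA-binding partner of Notch. The 250 bases before the RefSeq start of Hes5 (GRCm38.p6, chr4:154960673-154960922, plus strand) are printed with the motif TGGGAA or its reverse complement in capitals.
Hes5: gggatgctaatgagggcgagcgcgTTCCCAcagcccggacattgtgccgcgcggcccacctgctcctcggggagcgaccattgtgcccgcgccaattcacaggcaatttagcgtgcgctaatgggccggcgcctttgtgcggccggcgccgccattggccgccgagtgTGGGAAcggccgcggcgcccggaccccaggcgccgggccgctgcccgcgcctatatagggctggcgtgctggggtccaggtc
The matches lie 226 and 82 bases before the start. On both strands, 21.6% of the 32851 promoters in the table hold at least 1 match and 2.77% hold 2 or more, and 5 of the 17 Notch pathway genes with a promoter hold one. A match is a description of the letters and not a binding site. Hes5 itself went from 0.446 and 0.281 CPM at D2 to 21.5 and 24.1 CPM at D4 (log2 fold change 5.93, SE 0.24, adjusted p = 6.74e-13).

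Of 22 Notch pathway genes, 12 rose and 7 fell (median 0.84). Among the targets, Hey1, a repressor of the Hes family, went from 0.823 and 0.682 CPM to 12.6 and 12.5 CPM (log2 fold change 4.05 with SE 0.23, adjusted p = 5.96e-11). Nrarp, a feedback inhibitor that Notch induces, went from 4.01 and 3.73 CPM to 39.4 and 40.1 CPM (3.36, SE 0.18), with no match to the motif in its 250 bases. Maml3, a coactivator of the Notch complex, rose by 2.41 on the log2 scale. In all 4 genes both D4 libraries were high. The ligands did not share this direction: Dll4 (-2.70), Dll3 (-1.41), Dll1 (-0.33) and Jag2 (-0.29) fell and Jag1 rose (1.81), named after their values were seen. Dll4 was below 5 CPM on average at both days.

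Retinoic acid genes gave 10 higher and 4 lower of 17 (median 1.09). Cyp26b1, the enzyme that degrades retinoic acid (ENSMUSG00000063415.12, GRCm38 chr6:84571414-84593908, minus strand), went from 0.377 and 0.922 CPM to 133 and 141 CPM (log2 fold change 7.75 with SE 0.36, adjusted p = 3.28e-12). Crabp1, which binds retinoic acid in the cytoplasm, went from 28.6 and 24.7 CPM to 643 and 679 CPM (4.63, SE 0.10, adjusted p = 8.36e-16). On the supply and receptor side, Aldh1a2, the main enzyme that makes retinoic acid in the embryo, went from 6.79 and 5.05 CPM to 0.686 and 0.595 CPM (-3.20, SE 0.32, adjusted p = 9.08e-08). Rarg, a retinoic acid receptor gene, went from 333 and 318 CPM to 35.4 and 29.3 CPM (-3.33, SE 0.15). The further receptor genes Rxrg (-2.80) and Rara (-0.73) were the other members that fell.

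Genes of hindbrain and spinal cord position rose, while those of the midbrain and its boundary with the hindbrain fell more often than they rose. Of 20 tested hindbrain and spinal cord genes, 13 rose and 1, the caudal factor Cdx2, fell (-2.90), with a median of 2.11. Without TKO D4 replicate 1 the lower count was 2 and the median 1.61. Hoxb2, a homeobox gene of rhombomeres (ENSMUSG00000075588.6, GRCm38 chr11:96350525-96354012, plus strand), went from 0.0686 and 0.12 CPM to 13 and 13.8 CPM (log2 fold change 7.11 with SE 0.30, adjusted p = 1.24e-12). Hoxb3 went from 0.103 and 0.0802 CPM to 9.38 and 10.1 CPM (6.66, SE 0.29), Hoxa2 from 0.171 and 0.2 CPM to 15.9 and 16.4 CPM (6.42, SE 0.23, 13.7% shared) and Hoxa3 from 1.71 and 1.56 CPM to 13 and 13.4 CPM (3.0, SE 0.22). These anterior Hox genes, which pattern the hindbrain, were above 9 CPM in both D4 libraries, and Hoxb2, Hoxb3 and Hoxa2 were at or below 0.2 CPM at D2.

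Of 16 midbrain and boundary genes, 9 fell and 3 rose (median -0.58). Besides Otx2, Pax8 went from 6.41 and 5.65 CPM to 0.486 and 0.0661 CPM (log2 fold change -4.36 with SE 0.36, adjusted p = 7.59e-09), Fgf17, a boundary signal, from 7.30 and 7.06 CPM to 1.4 and 0.760 CPM (-2.71, SE 0.24) and Cnpy1, which aids Fgf signalling at the boundary, from 37.1 and 34.8 CPM to 12.2 and 12.3 CPM (-1.55, SE 0.093). The 3 that rose, Fgf8 (1.62), Pax2 (1.31) and Pax5 (0.97), are boundary genes too and stayed at or below 3 CPM. Of 17 forebrain genes tested, 6 rose, 2 fell and 9 did not pass (median 0.77). Sp8, a zinc finger factor of anterior neuroectoderm, went from 9.53 and 10.7 CPM to 55 and 62.3 CPM (2.54, SE 0.11) and Lhx2, a LIM homeobox factor of eye and cortex, from 2.54 and 1.80 CPM to 9.27 and 10.9 CPM (2.20, SE 0.18). Otx2 and Hesx1 (count ratio of D2 to D4 of 32.5, 95% counting interval 5.36 to 1333) were the lower forebrain members.

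Dorsoventral patterning genes gave 13 higher and 3 lower of 22 (median 1.33). Irx3, an Iroquois factor of intermediate progenitors, went from 30.7 and 33.2 CPM to 132 and 141 CPM (log2 fold change 2.10 with SE 0.090, adjusted p = 1.37e-12). Olig3, of dorsal progenitors, went from 1.03 and 1.16 CPM to 10.5 and 7.57 CPM (3.05, SE 0.31), and Dbx1, of the p0 domain, from 3 counts in all at D2 to 6.18 and 8.72 CPM (count ratio 133, 95% counting interval 45.1 to 646). The lower members were Gsx1, a homeobox gene of dorsal interneuron progenitors that went from 8.88 and 8.78 CPM to 0.229 and 0.231 CPM (-5.24, SE 0.38), Atoh1 (-1.81) and Foxa2, a floor plate and endoderm factor (-1.51).

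Proneural helix-loop-helix genes rose and fell at about the shares of all genes. Of 17 tested, 6 rose (35.3%, against 31.6% of all genes), 5 fell (29.4%, against 30.3%) and 6 did not pass. The median was -0.07, and 0.20 with members near 0 set to their bound or left out. Neurog2, which drives neurogenesis, was at 0.137 and 0.321 CPM at D2 and at 0.343 and 0.661 CPM at D4 and did not pass (log2 fold change 1.13, SE 0.65, adjusted p = 0.143). Neurod1, a later proneural factor, fell from 13 and 10.7 CPM to 3.20 and 3.11 CPM (-1.91, SE 0.19), as did Insm1, a zinc finger factor of newborn neurons, from 58.1 and 50.5 CPM to 18.6 and 15.3 CPM (-1.68, SE 0.16). The other members that fell were Hes6 (-1.37), Neurog3 (-2.74) and Atoh1. Neurog3 and Atoh1 were below 5 CPM on average at both days. Id4, which blocks helix-loop-helix factors, rose by 2.53 on the log2 scale.

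Among 31 neuron genes, 14 rose and 8 fell (median 0.42). Tubb3, a tubulin of young neurons (ENSMUSG00000062380.4, GRCm38 chr8:123411424-123422015, plus strand), fell from 190.0 and 179 CPM to 67.8 and 64.8 CPM (log2 fold change -1.48 with SE 0.19, adjusted p = 2.57e-06), and Ina, a neuronal intermediate filament, from 171 and 155 CPM to 55.8 and 51.9 CPM (-1.60, SE 0.10, adjusted p = 3.49e-10). Dcx, the microtubule protein doublecortin, rose from 0.926 and 1.12 CPM to 3.32 and 4.23 CPM (1.88, SE 0.31, adjusted p = 4.86e-05). Elavl4, a neuronal RNA-binding protein, went from 6.38 and 6.29 CPM to 26.5 and 28.7 CPM (2.12, SE 0.16), Nsg1, an endosomal protein of neurons, from 6.62 and 6.94 CPM to 34.9 and 37.2 CPM (2.41, SE 0.15) and Nefm, a neurofilament, from 17.1 and 15.2 CPM to 46.5 and 47.8 CPM (1.54, SE 0.15). Tubb3 and Ina were high in both D2 libraries, and Dcx, Elavl4, Nsg1 and Nefm in both D4 libraries.

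Fgf4 and Nodal, signals of the epiblast, fell. Of 22 Fgf ligands, receptors and Mapk targets, 12 fell and 6 rose (median -0.72). Fgf4, the ligand by which stem cells prime themselves, went from a mean of 104 CPM (SD 1.53, n = 2) to 9.47 and 6.81 CPM (log2 fold change -3.66 with SE 0.14, adjusted p = 3.68e-13), and Etv5, a target of the same signal, from 480.0 and 463 CPM to 66.4 and 47.2 CPM (-3.05, SE 0.18, 30.3% shared). Nodal, the Tgf-beta ligand that opposes neural fate, went from 51.9 and 48.5 CPM to 6.75 and 4.66 CPM (-3.13, SE 0.21, adjusted p = 7.42e-10). Its coreceptor Tdgf1 went from 117 and 103 CPM to 6.24 and 3.20 CPM (-4.52, SE 0.25, 12.5% shared). Of the 18 Nodal pathway genes 10 rose and 6 fell (median 0.39). Gdf1, a Nodal partner, fell by 2.79 on the log2 scale with all of its 31-mers shared.

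Bmp pathway genes gave 14 higher and 1 lower of 22 (median 1.28). The lower count was 2 without TKO D2 replicate 1, and also under the replicate block. The member that fell was the ligand Bmp4, from 3.60 and 2.49 CPM to 1.03 and 0.529 CPM (log2 fold change -1.95, SE 0.29). The Id genes, targets of Bmp that block helix-loop-helix factors, rose. Id3 went from 5.25 and 4.49 CPM to 60.3 and 64.3 CPM (3.67, SE 0.14, adjusted p = 2.74e-13) and Id1 from 4.32 and 3.65 CPM to 26 and 25.2 CPM (2.68, SE 0.11). Fst, the activin antagonist follistatin, went from 10.6 and 9.90 CPM to 117 and 124 CPM (3.55, SE 0.19).

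Of 29 Wnt ligands, inhibitors and targets, 13 rose and 9 fell (median 1.17). Sfrp1, a secreted Wnt inhibitor of neural progenitors, went from 59.5 and 61.6 CPM to 623 and 674 CPM (log2 fold change 3.42 with SE 0.071, adjusted p = 4.01e-16). Fzd3, a Wnt receptor of axon guidance, went from 23.7 and 26.4 CPM to 238 and 271 CPM (3.35, SE 0.10), and Wnt7a, a ligand of the neural tube, from 0.583 and 0.401 CPM to 7.72 and 7.80 CPM (3.95, SE 0.27). Hedgehog genes gave 11 higher and 4 lower of 16 (median 0.87). Boc, a Hedgehog coreceptor, went from 3.84 and 4.73 CPM to 75.3 and 81 CPM (4.20, SE 0.14, adjusted p = 8.72e-14) and Scube2, which helps release the ligand, from 2.64 and 2.73 CPM to 12.6 and 17.6 CPM (2.49, SE 0.16). The members that fell included Ihh, a ligand (-2.70), and the pathway targets Hhip (-1.78) and Gli1 (-0.74), which report active signalling. Ihh was below 5 CPM on average at both days.

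TKO D2 libraries held endoderm transcripts that WT D2 libraries held at lower levels, and these fell by D4. Of 27 primitive, visceral and definitive endoderm genes, 18 fell, 2 rose and 7 did not pass (median -1.13). Their summed level was 3551 and 4209 CPM in TKO D2, 2310 and 2503 CPM in TKO D4, 1435 and 1301 CPM in WT D2 and 2228 and 2286 CPM in WT D4, and no member was at 0 in both TKO groups. Cubn, an endocytic receptor of visceral endoderm, went from 207 and 286 CPM to 13.4 and 15.1 CPM (log2 fold change -4.12 with SE 0.30, adjusted p = 1.96e-09). Amn, its membrane partner amnionless, went from 7.17 and 6.69 CPM to 0.658 and 0.925 CPM (-3.14, SE 0.29), Gata6, which founds primitive endoderm, from 13.7 and 16.7 CPM to 2.69 and 2.74 CPM (-2.48, SE 0.28) and Sox17, an endoderm factor, from 7.47 and 10.1 CPM to 1.43 and 1.78 CPM (-2.45, SE 0.32, adjusted p = 2.56e-06). In all 4 genes the D2 libraries were high and apart from the D4 libraries. The members that rose were Lrp2, an endocytic receptor that neuroepithelium also carries (0.65), and Cer1, at under 1 CPM (2.08), and without TKO D2 replicate 1 the count was 1. The part of endoderm cells in the changes of the other lists was not tested.

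Other lineages were present at low levels or moved in both directions. Of 20 primitive streak and mesoderm genes tested, 5 rose, 3 fell and 12 did not pass (median 0.29). T, the brachyury factor of the streak and of posterior progenitors, went from 0.274 and 0.361 CPM to 2.72 and 2.35 CPM (log2 fold change 2.99 with SE 0.50, adjusted p = 4.69e-05), and Foxc1, a forkhead factor of mesoderm, from 1.17 and 1.16 CPM to 14.7 and 16.7 CPM (3.75, SE 0.22). Wnt3 (1.54), Tbx20 (1.31) and Fgf8 also rose, and Pdgfra, a receptor of mesoderm and primitive endoderm, fell from 17.6 and 19.7 CPM to 7.04 and 6.94 CPM (-1.41, SE 0.24) with Eomes (-1.61) and Hand1 (count ratio of D2 to D4 of 16.9, 95% counting interval 4.26 to 146). Summed over the list, the streak and mesoderm level was 35.3 and 35.7 CPM at D2 and 42.6 and 41.1 CPM at D4, and Msgn1, a marker of presomitic mesoderm, was at 0.

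Of 14 mesenchyme and fibroblast genes tested, 9 rose and 3 fell (median 1.5, and 1.22 with the member at 0 set to its bound or left out), and Mgp was at 0 in the TKO libraries. Tagln, an actin-binding protein of smooth muscle, went from 3.77 and 4.37 CPM to 40.2 and 36.2 CPM (log2 fold change 3.23, SE 0.21), Col1a2, a fibrillar collagen, from 1.34 and 0.962 CPM to 14.4 and 13 CPM (3.56, SE 0.26) and Vcan, a matrix proteoglycan that neural cells also make, from 49 and 65.9 CPM to 149 and 164 CPM (1.45, SE 0.16). Dcn (-3.13), Fn1 (-1.24) and Thy1 (-0.37) fell, and the summed level of the list went from 687 and 749 CPM to 573 and 586 CPM. Dcn was below 5 CPM on average at both days. Of 15 neural crest genes 5 rose and 6 fell (median 0.11), with Ets1 (1.95), Sox9 (3.01), Pax3 (3.45), Cdh6 (1.33) and Twist1 (0.48) higher and Ngfr, the p75 receptor of crest cells, down from 15.5 and 14.2 CPM to 4.23 and 3.17 CPM (-1.99, SE 0.16). Sox9 and Pax3 were below 5 CPM on average at both days. Of 16 surface ectoderm genes 3 rose, namely Dsp, Perp and Trp63, and 6 fell (median -0.24, and 0.04 with members near 0 set to their bound or left out). Without TKO D4 replicate 1 that median was -0.84. Of 19 trophoblast genes, 10 fell, among them Plet1 (-2.97), and 3 rose (median -0.52, and -0.67 with members at 0 set to their bound or left out), and Prl3d1 and Ctsj were at 0. The higher ones were Ets2, Tead4 and Peg10, an imprinted gene of placenta that went from 387 and 408 CPM to 1142 and 1205 CPM (1.56, SE 0.086), and Peg10 made up most of the list's summed level of 1197 and 1260 CPM at D4. The Tead4 call (0.57, adjusted p = 0.0148) ended without TKO D2 replicate 1 (0.112) and without TKO D4 replicate 2 (0.0842).

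Germline genes whose silence is known to depend on promoter methylation fell more often than they rose. Of 41 tested, 23 fell (56.1%, against 30.3% of all genes), 8 rose (19.5%, against 31.6%) and 10 did not pass (median -0.94). Their summed level went from 956 and 919 CPM to 499 and 500 CPM. The fall was not particular to TKO: in WT over the same days 27 of the 41 fell and 3 rose (median -1.43). The summed level in WT went from 607 and 563 CPM to 237 and 223 CPM. Tex14, which forms the bridges between germ cells, went from 45.4 and 43.4 CPM to 4.38 and 3.73 CPM (log2 fold change -3.45 with SE 0.13, adjusted p = 4.77e-13), and Sycp3, an axis protein of meiotic chromosomes, from 8.13 and 7.94 CPM to 1.00 and 0.694 CPM (-3.22, SE 0.25). Rpl10l, a testis copy of a ribosomal protein gene, fell by 2.89 (23.4% shared) and Piwil4, a piRNA-binding protein, by 2.44 on the log2 scale. Dazl, an RNA-binding protein of germ cells (ENSMUSG00000010592.9, GRCm38 chr17:50279395-50293636, minus strand), rose from 47.1 and 48.3 CPM to 97.5 and 115 CPM (1.15, SE 0.14, adjusted p = 1.07e-06). Slc25a31, an ATP carrier of germ cell mitochondria, rose from 3.67 and 3.89 CPM to 8.47 and 10.2 CPM (1.31, SE 0.14, adjusted p = 3.05e-07). The D4 libraries of Dazl and Slc25a31 both lay above the D2 libraries, the reverse of Tex14 and Sycp3.

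The promoters of Dazl and Slc25a31 are shown because methylation acts on CG dinucleotides, printed in capitals here. Each line gives the 250 bases before the RefSeq start on GRCm38.p6, which are chr17:50293621-50293870 on the minus strand for Dazl and chr3:40708621-40708870 on the plus strand for Slc25a31.
Dazl: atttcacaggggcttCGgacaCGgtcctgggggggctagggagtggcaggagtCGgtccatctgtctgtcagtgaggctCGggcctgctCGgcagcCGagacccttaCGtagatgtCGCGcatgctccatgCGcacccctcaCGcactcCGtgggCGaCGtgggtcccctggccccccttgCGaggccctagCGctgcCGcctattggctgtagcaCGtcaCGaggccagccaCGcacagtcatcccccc
Slc25a31: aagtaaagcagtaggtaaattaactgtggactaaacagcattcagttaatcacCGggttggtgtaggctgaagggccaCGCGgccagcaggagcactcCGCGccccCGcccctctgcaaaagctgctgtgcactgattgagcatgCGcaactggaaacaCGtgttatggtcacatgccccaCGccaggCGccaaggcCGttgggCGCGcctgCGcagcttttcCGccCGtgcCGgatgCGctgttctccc
Dazl holds 20 and Slc25a31 18 CG dinucleotides in this window, against a median of 6 over the 32851 promoters and of 16 over the 34 germline genes with a promoter in the table. Those germline promoters ranged from 5 to 40. The median was 14 over the 110 named genes with a promoter and 18 over the 17 Notch pathway genes with one. So a count above 6 is not particular to germline genes. The E-box CACGTG, the same on both strands, is in 16 of the 34 germline promoters and in 6.02% of all promoters. Methylation itself was not measured in these libraries.

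Of 20 genes of the methylation machinery, 8 rose and 9 fell (median -0.09). Zfp57, which protects imprints, went from 229 and 207 CPM to 57.7 and 55.8 CPM (log2 fold change -1.94 with SE 0.088, adjusted p = 2.86e-12). Of 32 imprinted genes, 15 rose and 13 fell (median -0.03). Plagl1, an imprinted zinc finger gene, went from 11.8 and 15.1 CPM to 212 and 217 CPM (4.00, SE 0.15, adjusted p = 1.94e-13), Nnat, a proteolipid of developing brain, to 247 and 260.0 CPM (3.81, SE 0.12) and Peg12, a gene of the Frat family, from 2.5 and 2.81 CPM to 59.1 and 69.4 CPM (4.6, SE 0.11). Mest, a hydrolase expressed from the paternal allele, went from 541 and 548 CPM to 3029 and 3052 CPM (2.48, SE 0.063, adjusted p = 3.09e-15). These 4 genes are known as expressed from the paternal allele, and in each the replicates lay close together. Cdkn1c, a cell cycle inhibitor expressed from the maternal allele, fell from 38.2 and 35.2 CPM to 15.7 and 16 CPM (-1.21, SE 0.10, adjusted p = 8.95e-09).

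Of 30 proliferation genes, 15 fell and 9 rose (median -0.13). Ccnd2, the D-type cyclin of neural progenitors, stood apart with a rise from 24 and 24.8 CPM to 238 and 280.0 CPM (log2 fold change 3.41 with SE 0.11, adjusted p = 7.59e-14). Of 22 p53 targets, 16 rose and 2 fell (median 0.58). Cdkn1a, the inhibitor p21, went from 53.4 and 53 CPM to 145 and 143 CPM (1.44, SE 0.068, adjusted p = 5.44e-12) and Ccng1, cyclin G1, from 272 and 286 CPM to 833 and 872 CPM (1.61, SE 0.091). Pmaip1, the cell death gene Noxa, fell from 49.6 and 50.3 CPM to 21 and 16.5 CPM (-1.41, SE 0.13), as did Bax (-0.57, 11.1% shared).

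Stress response genes fell more often than they rose, and the share of glycolysis genes that fell was near that of all genes. Of 25 integrated stress and unfolded protein response genes, 16 fell and 2 rose, Hyou1 (0.32) and Ddit4 (1.32), with a median of -0.63. Trib3, a pseudokinase induced by Atf4, went from 23.7 and 25.5 CPM to 3.40 and 2.74 CPM (log2 fold change -2.99 with SE 0.58, adjusted p = 0.000232), and Nupr1, a stress-induced chromatin protein, fell by 3.42. Chac1, a glutathione-degrading enzyme, fell by 2.19 (adjusted p = 0.01), a call that ended without TKO D4 replicate 1 (0.0506) and without TKO D4 replicate 2 (0.0545). Of 24 glycolysis and hypoxia genes, 8 fell, 2 rose, Slc2a3 (0.74) and Tpi1 (0.94, 10.3% shared), and 14 did not pass (median -0.25), so that 33.3% fell against 30.3% of all genes. Pdk1, which keeps pyruvate out of the mitochondrion, went from 183 and 179 CPM to 29.7 and 27.6 CPM (-2.66, SE 0.13, adjusted p = 9.49e-12). The lower count of this list was 5 without TKO D4 replicate 2 and 3 over genes with under 10% shared 31-mers, and the higher count was 1 without TKO D2 replicate 1 or TKO D4 replicate 1. Of 23 interferon genes tested, 10 rose and 5 fell (median 0.59), with Tap1, a peptide transporter of antigen presentation, up from 6.34 and 6.98 CPM to 23.3 and 23.3 CPM (1.81, SE 0.10) and Ddx58, the RNA sensor RIG-I, down from 33.7 and 35.9 CPM to 3.09 and 3.40 CPM (-3.42, SE 0.14). The other interferon genes that fell were Bst2 (-0.95), Rsad2 (-2.70), Oas1a (-2.31, 68.8% shared) and Ifit1, which was under 1 CPM in every library (10.2% shared). Rsad2 and Oas1a were below 5 CPM on average at both days. Among the 13 mitochondrially encoded genes mt-Atp8 (1.04), mt-Atp6 (0.87, 99.5% shared) and mt-Nd3 (0.68, 98.1% shared) rose, mt-Co1 (-0.29, 63.9% shared) and mt-Cytb (-0.27) fell and 8 did not pass (median -0.01). The mt-Nd3 call ended by DESeq2 (adjusted p = 0.0864), without TKO D2 replicate 1 (0.202) and without TKO D4 replicate 1 (0.24 on the log2 scale, adjusted p = 0.509), and the lower count was 1 without TKO D2 replicate 1.

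The 8 highest and the 8 lowest fold changes were taken from genes that passed and averaged at least 5 CPM in TKO D2 or TKO D4. The D2 and D4 libraries had to be apart, and predicted, clone and Riken names were left out. Those chosen included Cyp26b1, Nr2f2 and Hoxb2 on the higher side and Dppa3 and Tcl1 on the lower side. Of the others, Fam181a had 1 count in the D2 libraries and reached 30.8 and 33.1 CPM (count ratio 1725, 95% counting interval 309 to 68150.0). Ednrb, the endothelin receptor of neural crest and radial glia, went from 0.206 and 0 CPM to 70.7 and 79.8 CPM (log2 fold change 9.36 with SE 0.30, adjusted p = 3.8e-14). With 6 counts at D2, all in replicate 1, that value was 14.19 without TKO D2 replicate 1 and 8.49 without TKO D2 replicate 2. Col8a1, a short-chain collagen, went from 2 counts to 10.2 and 10.8 CPM (count ratio 283, 95% counting interval 78.1 to 2344). Vit, a matrix protein of neural tissue, went from 0.206 and 0.12 CPM to 23 and 28.5 CPM (7.24, SE 0.23), and Slc44a5, a choline transporter-like gene, from 0.274 and 0.2 CPM to 28.9 and 33.7 CPM (7.0, SE 0.20).

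On the lower side, Insc, which orients the spindle in asymmetric division, went from 30.4 and 25.6 CPM to 0.257 and 0.198 CPM (log2 fold change -6.90 with SE 0.23, adjusted p = 7.54e-14). Morc1, a germline factor that represses transposons, went from 104 and 94.7 CPM to 1.94 and 1.42 CPM (-5.86, SE 0.16, adjusted p = 5.43e-15). Ccno, a cyclin-like gene of multiciliated cells, went from 47.5 and 44.9 CPM to 0.887 and 0.595 CPM (-5.94, SE 0.15), and Crocc2, a rootletin relative, from 47.8 and 50.6 CPM to 0.515 and 0.562 CPM (-6.51, SE 0.16). The muscle genes Ttn (-6.23, SE 0.25) and Mymx (-6.05, SE 0.35) fell as well. Insc, Morc1, Ccno and Crocc2 were below 2 CPM in both D4 libraries and above 25 CPM in both D2 libraries.

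Whether TKO cells took the same step as WT cells was asked from the WT D2 and WT D4 libraries, which share no sample with the TKO comparison. In WT 5900 genes rose (31.8%) and 5584 fell (30.1%), and 9420 genes passed in both genotypes, 9212 in the same direction and 208 in opposite ones. Across the 18555 genes the log2 fold changes of the 2 steps correlated with r = 0.76 (Pearson), as a description over genes, which are not independent. The naive list moved by a median of -3.89 in TKO and -4.74 in WT, and the neural plate list by 2.49 and 2.86. The difference of the steps, TKO minus WT, passed for 2940 genes (15.8%), more positive in TKO for 1412 (7.61%) and more negative for 1528 (8.23%). List members with a positive or negative difference are to be read against these 7.61% and 8.23%. The positive count was 896 without WT D2 replicate 2 and 915 without TKO D4 replicate 2. Of the 2940, 1176 moved the same way in both genotypes and by less in TKO, 465 the same way and by more in TKO, 89 rose in TKO and fell in WT, and 119 fell in TKO and rose in WT. For the rest, only the TKO step passed in 469, only the WT step in 609 and neither step in 13.

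**Figure D3:**
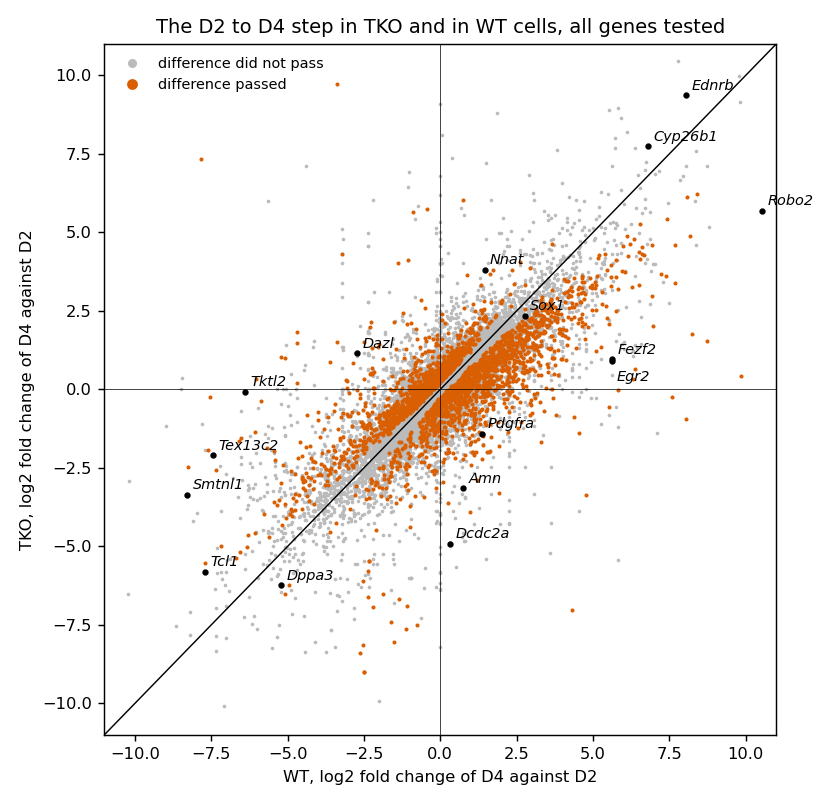
Log2 fold change of D4 against D2 in WT cells (x axis) and in TKO cells (y axis) for the 18555 genes tested, with the diagonal of equal change and orange points where the difference of the steps passed (2940 genes). The points scatter along the diagonal (r = 0.76), with Tktl2, Tex13c2, Smtnl1 and Dazl above it and Fezf2, Egr2, Dcdc2a and Amn below it.

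Naive genes whose step differed fell less in TKO than in WT. Among the 18 naive genes the difference was positive for 9 and negative for 0. Nr0b1 fell by 5.51 in TKO and 7.69 in WT (difference 2.18, SE 0.51, adjusted p = 0.0072), a call that ended without TKO D4 replicate 1 (0.0509), and Fgf4 by 3.66 and 5.07 (difference 1.41, SE 0.20, adjusted p = 0.000129). Foxd3 fell by 5.00 in TKO and 7.17 in WT (difference 2.17, SE 0.45, adjusted p = 0.00311). For Pou5f1 the difference did not pass (0.69, SE 0.30, adjusted p = 0.138). Pou3f1 went the other way and fell by 3.15 in TKO and 1.78 in WT (difference -1.37, SE 0.16, adjusted p = 2.19e-05).

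Of 32 neural plate genes the difference was negative for 10 and positive for 1, Sox21, a SoxB factor of progenitors (0.34, adjusted p = 0.00898). Nes rose by 2.43 in TKO and 3.53 in WT (difference -1.10, SE 0.12, adjusted p = 1.19e-05), from a TKO D2 level of 54.6 and 51.1 CPM against 16 and 15.8 CPM in WT D2. So the WT D4 level of 168 and 199 CPM lay below the TKO D4 level of 279 and 289 CPM although the WT rise was larger. Cdh2 had a difference of -0.38 (SE 0.077, adjusted p = 0.00221), and that of Sox1 (-0.43, adjusted p = 0.0315) ended when any 1 of the 8 libraries was left out. Crabp1 rose by 4.63 in TKO and 6.21 in WT (difference -1.58, SE 0.14, adjusted p = 9.06e-07), and 5 of the 17 retinoic acid genes and 5 of the 20 hindbrain and spinal cord genes had a negative difference, with no positive one in either list. The former are Crabp1, Crabp2, Dhrs3, Rxra and Stra6 (differences from -2.59 to -0.45), and the latter include Egr2 (-4.71), Hoxb1 (-3.0) and Hoxa3 (-1.21). The Hoxa3 call (adjusted p = 0.0237) ended without WT D2 replicate 1 (0.108), WT D4 replicate 2 (0.0528), TKO D2 replicate 1 (0.106), TKO D2 replicate 2 (0.0569) or TKO D4 replicate 1 (0.0552). Scube2 had a difference of -3.25 (SE 0.33), Nsg1 of -2.22 (SE 0.27) and Id3 of 2.04 (SE 0.19, adjusted p = 1.88e-06). For p53 targets the difference was positive for 9 of 22 and negative for Sesn1 alone (difference -0.59).

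Of 27 endoderm genes, the difference was negative for 12 and positive for 1, Apob, an apolipoprotein (1.66, adjusted p = 0.0215), and the medians were -1.13 in TKO and 0.11 in WT. Amn fell by 3.14 in TKO, and WT held 0.736 and 1.11 CPM at D2 and 1.63 and 1.53 CPM at D4 (difference -3.89, SE 0.43, adjusted p = 9.46e-06). Pdgfra fell by 1.41 in TKO and rose by 1.38 in WT (difference -2.80, SE 0.44, adjusted p = 0.000281). Col4a1, a basement membrane collagen named after its values were seen, went from 777 and 978 CPM to 398 and 427 CPM in TKO and from 49.6 and 50.1 CPM to 163 and 146 CPM in WT (difference -2.72, SE 0.27, adjusted p = 3.01e-06). The TKO level of Col4a1 was still the higher at D4. Gata6 had a difference of -2.10 (adjusted p = 0.0154) that ended without WT D2 replicate 2 (0.0569), WT D4 replicate 1 (0.0558) or WT D4 replicate 2 (0.082).

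**Figure D4:**
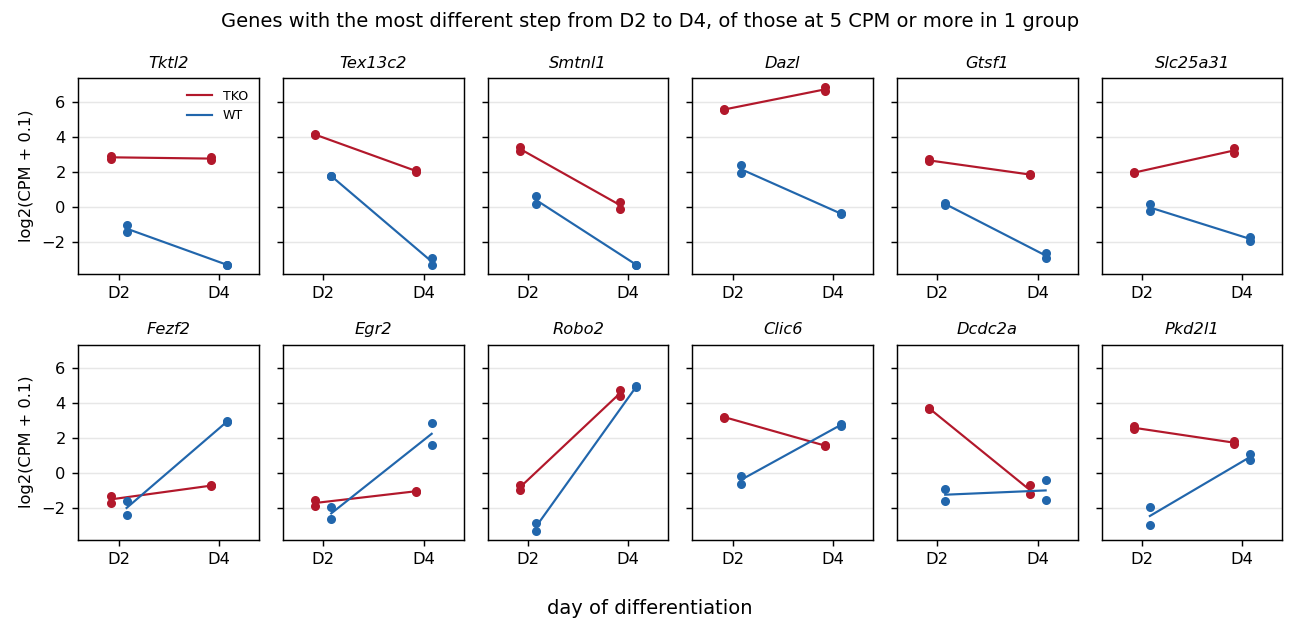
Log2(CPM + 0.1) at D2 and D4 in each library of TKO (red) and WT (blue), lines through the means of 2 libraries, for the 12 genes with the most positive (top) and most negative (bottom) difference of steps among genes at 5 CPM or more in 1 group. Only genes whose difference passed were taken, without predicted, clone and Riken names. In the top row the WT line falls more steeply than the TKO line or the TKO line rises, and in the bottom row WT rises more than TKO or TKO falls.

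The 6 genes with the most positive difference included Dazl and Slc25a31 of the germline list. Dazl rose by 1.15 in TKO and fell by 2.72 in WT, where it went from 5.11 and 3.78 CPM to 0.681 and 0.644 CPM (difference 3.87, SE 0.35, adjusted p = 1.61e-06). Slc25a31 rose by 1.31 in TKO and fell by 2.24 in WT (difference 3.55, SE 0.35, adjusted p = 2.78e-06), and Gtsf1, a piRNA pathway gene, fell by 0.83 in TKO and to 3 counts in WT D4 (difference 3.55, SE 0.58). Tktl2, a transketolase copy active in testis, stayed at 7.01 and 6.38 CPM in TKO D4 after 6.69 and 7.42 CPM in TKO D2, where the groups overlapped, and was at 0 in both WT D4 libraries (difference 6.31, SE 0.87). Tex13c2, a testis gene, fell to 4.29 and 3.87 CPM in TKO and to 1 count in WT D4 (difference 5.34, SE 0.58), and Smtnl1, a smoothelin relative, to 0.829 and 1.12 CPM in TKO and to 0 in WT D4 (difference 4.92, SE 1.4, adjusted p = 0.0254). The last 4 differences rest on 3 or fewer WT D4 counts and depend on the prior count of the fit, and the Smtnl1 call ended without WT D4 replicate 1 (0.112) and without 3 other libraries. Over the 41 germline genes the difference was positive for 11 and negative for 6, against 7.61% and 8.23% of all genes.

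The 6 genes with the most negative difference included Fezf2 and Egr2 of the patterning lists. Fezf2, a zinc finger factor of the forebrain (ENSMUSG00000021743.6, GRCm38 chr14:12342094-12348189, minus strand), stood at 0.309 and 0.2 CPM in TKO D2 and 0.515 and 0.496 CPM in TKO D4, while WT D4 held 7.82 and 7.39 CPM (difference -4.66, SE 0.64, adjusted p = 0.000116). Egr2, the rhombomere factor Krox20, stood at 0.372 and 0.396 CPM in TKO D4 and at 2.96 and 7.26 CPM in WT D4 (difference -4.71, SE 1.10, adjusted p = 0.00868), a call that ended without TKO D2 replicate 2 (0.0685). Robo2, an axon guidance receptor, rose in both, to 21.2 and 26.9 CPM in TKO and 30.5 and 31.3 CPM in WT, but from 1 count in WT D2 (difference -4.86, SE 0.83, a fitted value that depends on the prior count). Pkd2l1, a channel of neurons that contact the spinal fluid, went from 6.27 and 5.61 CPM to 3.40 and 3.07 CPM in TKO and rose to 1.60 and 2.02 CPM in WT (difference -5.25, SE 0.45, adjusted p = 8.07e-07). Clic6, a chloride channel-like protein, fell by 1.66 in TKO and rose by 3.29 in WT (difference -4.95, SE 0.30), and Dcdc2a, a doublecortin relative, went from 13.3 and 12.6 CPM to 0.515 and 0.33 CPM in TKO and did not pass in WT (difference -5.24, SE 0.56, adjusted p = 6.83e-06). Among imprinted genes the difference was positive for Nnat, Peg3 and Usp29 and negative for 11 of 32, with Cdkn1c falling by 1.21 in TKO and rising by 1.05 in WT (difference -2.27, SE 0.13, adjusted p = 2.49e-08) and Nnat rising by 3.81 in TKO and 1.45 in WT (difference 2.36, SE 0.27).

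Seen over the whole course, the D4 level in TKO was the lowest or highest of the course for some of these genes and not for others, given here as levels with no test. Pou5f1 had 55.4 and 44.2 CPM at D6 and a mean of 526 CPM (SD 37.5, n = 2) at D8 in TKO, and Cdh1 a mean of 93.9 CPM (SD 15.3, n = 2) at D6 and 529 and 513 CPM at D8. Otx2 had 12.9 and 8.39 CPM at D6 and 71.4 and 61.2 CPM at D8, so the D4 libraries held the lowest TKO levels of Otx2. For Cdh1 the D4 and D6 libraries overlapped, with the lower D6 library at 83.2 CPM and the higher D4 library at 87.6 CPM. Sox1 was at its highest TKO level at D4 and stood at 272 and 237 CPM at D6 and 116 and 127 CPM at D8. Tubb3, which had fallen at D4, was at 452 and 596 CPM at D6, and Dazl was at 232 and 292 CPM at D6.

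**Figure D5:**
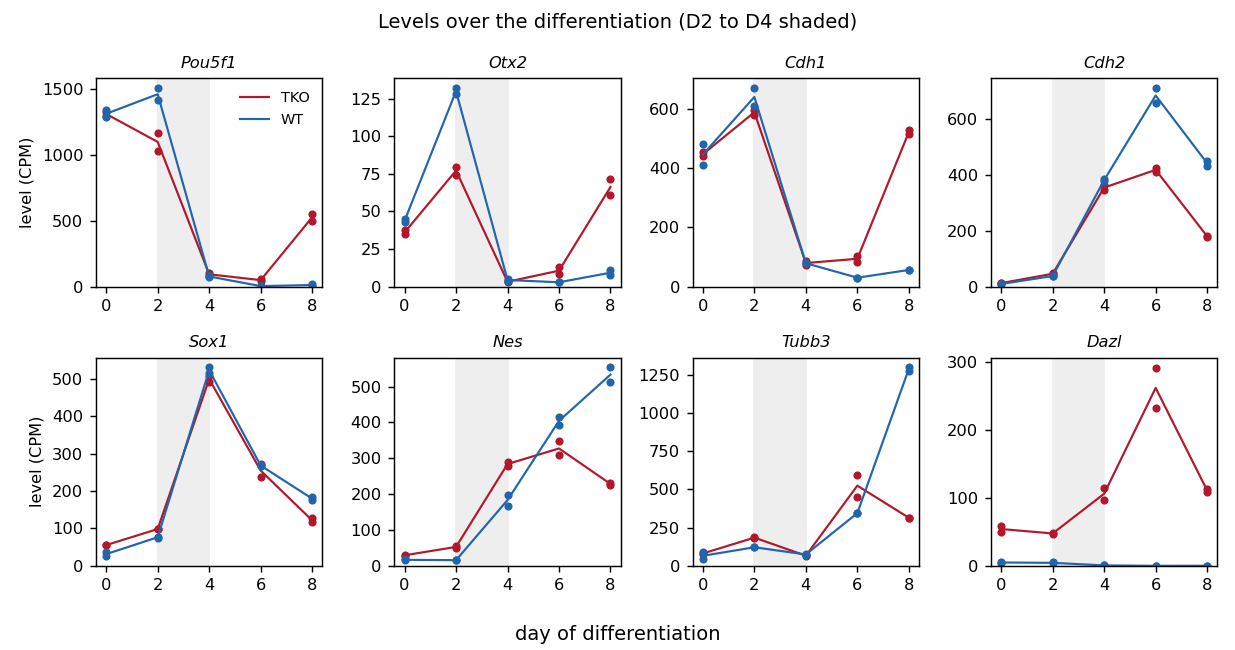
Level in CPM of 8 genes in each library from D0 to D8 in TKO (red) and WT (blue), with lines through the means of the 2 libraries of a day and the interval from D2 to D4 shaded. In the shaded interval Pou5f1, Otx2, Cdh1 and Tubb3 fall and Cdh2, Sox1 and Nes rise in both genotypes, while Dazl rises in TKO.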

How the data were processed

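Polyadenylated RNA of 20 libraries (10 groups of 2, WT and TKO at 5 days) was sequenced with a strand-specific kit, per the labels' protocols. The authors deposited, per library, estimated counts per transcript made with kallisto, and the submitters' processing notes name kallisto without a version, Trim Galore 0.6.2 and the builds GRCm38 and mm10. The deposited tables also hold TPM, as named in the file headers, and transcript lengths in bases, and neither was used in a test. Of 119414 transcripts, 116728 matched a GENCODE M21 gene, and the 2686 without a match carried between 0.943% and 1.1% of each library's counts and were left out.

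Counts were summed over 35975 genes and rounded. All 20 libraries were fitted with edgeR 4.0.16 in R 4.3.3 (TMM, filterByExpr on the 10 groups, quasi-likelihood F test), so that the groups shared 10 residual degrees of freedom and a common biological coefficient of variation of 0.069. Contrasts were TKO D4 against TKO D2, the same days in WT, and the difference of these steps. The fit was tested on simulated data for the TKO comparison over 18359 genes: it recovered 40 of 67 genes changed 1.5-fold, 54 of 67 changed 2-fold and 65 of 66 changed 4-fold, with 7 calls among unchanged genes. Far fewer genes were changed in the simulation than the 61.9% that passed in the data. The adjusted p cutoff was therefore stricter there, so these counts do not measure recovery in the real comparison. The 2 libraries per group limit the precision, and 95% counting intervals (exact) cover counting error only. TKO folds against 1 to 3 counts are count ratios, and differences between steps against so few WT counts are fitted values.

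The members, 33 gene lists and alternatives were chosen with earlier results of these data known. Of 676 genes listed, 668 were in the files and 650 were tested. Named genes were 23 markers, the 8 highest and 8 lowest of the step and the 6 highest and 6 lowest of the difference (passing, at least 5 CPM in a group), and up to 4 members per list with the largest change. Predicted, clone and Riken names were left out of the highest and lowest genes. For those of the step, the TKO D2 and TKO D4 libraries also had to be apart. Genes outside the rule are said to be so. A few list members are not reported here by name. Promoters are the RefSeq windows of GRCm38.p6, present for 110 of 154 named genes. The alternatives tried were another scaling (relative log expression), all genes without the filter on low counts, DESeq2 1.42.0, a fit restricted to the groups compared, the replicate number as a block, protein-coding genes alone, an adjusted p under 0.01, at least 2-fold, leaving out each library and, added after the data were seen, genes with under 10% shared 31-mers.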

Additional observations from a re-analysis of the deposited data

Results flagged for a closer look

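The step from D2 to D4 differed between TKO and WT cells for 2940 genes by edgeR's quasi-likelihood test of the difference itself (Benjamini-Hochberg adjusted p under 0.05), and 24 of the genes chosen by the naming rule had a difference of at least 4-fold. All values here are log2 differences, the TKO change minus the WT change. On the more positive side were Tktl2 (6.31), Tex13c2 (5.34), Smtnl1 (4.92), Dazl (3.87), Slc25a31 (3.55), Gtsf1 (3.55), Nnat (2.36), Nr0b1 (2.18), Foxd3 (2.17) and Id3 (2.04). On the more negative side were Pkd2l1 (-5.25), Dcdc2a (-5.24), Clic6 (-4.95), Robo2 (-4.86), Egr2 (-4.71), Fezf2 (-4.66), Amn (-3.89), Scube2 (-3.25), Pdgfra (-2.80), Peg12 (-2.34), Foxc1 (-2.30), Cdkn1c (-2.27), Nsg1 (-2.22) and Gata6 (-2.10). The values of Tktl2, Tex13c2, Smtnl1, Gtsf1 and Robo2 rest on 3 or fewer counts in a WT group and depend on the prior count. Calls of Smtnl1, Egr2, Gata6 and Nr0b1 ended when particular libraries were left out, as given above. Foxc1 rose in both genotypes, and its difference was -3.94 without WT D2 replicate 1 and -1.38 without WT D2 replicate 2 (adjusted p = 0.155).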

How the results depend on the processing

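No alternative reversed the direction of a called value. Requiring at least 2-fold left 2514 genes higher and 2373 lower in TKO D4, and 294 positive and 748 negative differences from WT. An adjusted p under 0.01 left 692 positive and 868 negative differences. Leaving out 1 library at a time gave 5150 to 5404 genes higher, 4813 to 5235 lower, 896 to 1180 positive and 1067 to 1318 negative differences. With the replicate number as a block, 5838 genes were higher and 5605 lower, and 1390 differences were positive and 1506 negative. The numbers are shared only, since deviations of same-numbered TKO D2 and TKO D4 libraries correlated with r = 0.0322. Of the called genes 51% were higher under TMM, 48.1% under relative log expression scaling and 48.5% by DESeq2, and both alternatives moved the median of all genes by -0.03. The glycolysis list gave 6 higher and 13 lower without the low-count filter and also in a fit of the compared groups alone. The proneural median was 0.47 in the latter. The cause of these shifts was not tested. With 2 libraries a group, small changes are the least certain. On simulated data 40 of 67 genes changed 1.5-fold were recovered. Far fewer genes were changed there than passed in the data, so that count does not measure recovery in the real comparison.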
